A study of Homo sapiens with 6 samples.

Results

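Interferon-stimulated genes and the RNA sensors that feed them were followed in DLD-1 cells, an established human colorectal adenocarcinoma line, by RNA-seq. The 37 genes were chosen by name from the interferon response, and each was found under 1 Ensembl gene ID among the 60483 genes of the count tables. They hold 9 RNA sensors with their adaptor, 5 transcription factors, 4 IFIT genes, 4 genes of membrane restriction factors, 3 genes of the ISG15 system, 7 other antiviral effectors and 5 IFI genes. One group of 3 libraries came from cells transfected with control siRNA and the other group of 3 from cells transfected with siRNA against AHR, the gene of the aryl hydrocarbon receptor, which acts as a transcription factor once a ligand binds it. Both groups were transfected cells of passages 16 to 19 in the same medium and serum, so contact with transfected RNA is shared by all 6 libraries and no contrast here measures it. The sources used here do not give the siRNA sequences, the dose or the time after transfection.

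Cells sense foreign double-stranded RNA, synthetic duplexes included, through TLR3 in endosomes and through RIG-I, MDA5, PKR and the OAS enzymes in the cytoplasm. RIG-I and MDA5 signal through MAVS to IRF3 and IRF7, which switch on interferon genes. Secreted type I and type III interferon acts through JAK1 and TYK2 on a complex that holds STAT2 and IRF9, which binds the interferon-stimulated response element (ISRE) in front of many antiviral genes. Interferon gamma acts on the GAS element. Many cancer lines also express part of this gene set without added interferon.

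The libraries held 11567736 to 15037145 counts, and the 3 lowest totals were those of AHR siRNA. AHR (ENSG00000106546.11) stood at 117, 144 and 132 CPM (counts scaled by library size) in control siRNA replicates 1 to 3 and at 95.8, 87.4 and 95 CPM in the AHR siRNA libraries, in the same order. All AHR siRNA values were below all control values, with a log2 fold change (log2FC) of -0.50 (SE 0.08, edgeR adjusted p = 1.98e-05), so 70.8% of the transcript remained. All 8 epithelial markers were detected, and their summed level was 11630 to 13151 CPM in control and 8030 to 8353 CPM in AHR siRNA libraries. Most of that sum was KRT8 (6359 and 3902 CPM on average) and KRT18 (2829 and 1756 CPM), both called lower. EPCAM (log2FC -0.26, edgeR adjusted p = 0.00787), CDH1 (-0.48, 9.46e-06) and CDX2 (-0.23, 0.00531) were also called lower. VIL1 rose from 7.47 to 33.5 CPM (edgeR adjusted p = 1.85e-11), and KRT19 and KRT20 were not called. Of the leukocyte markers, LILRA4 had no count in any library and the list summed to 3.31 to 4.73 CPM in control and 2.15 to 2.79 CPM in AHR siRNA libraries. Of 6 fibroblast markers, DCN and LUM had no count and the sums were 2.23 to 3.15 and 2.13 to 3.31 CPM. Within that list PDGFRB was called higher (0.49 and 1.65 CPM on average, edgeR adjusted p = 0.000566) and COL1A1 lower (2.08 and 1.19 CPM, 0.0324). Of 4 endothelial markers, KDR had no count and the sums were 1.31 to 1.95 and 2.13 to 2.40 CPM. The part of the shifts in the epithelial, leukocyte and endothelial sums, and in PDGFRB and COL1A1, in the results below was not tested. In RNA from whole cultures, fewer expressing cells and less RNA per cell cannot be told apart.

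The genes did not move as one block. Of the 37, 32 passed the filter on low counts, and of these 9 were called higher in AHR siRNA cells, 9 were called lower and 14 were not called by edgeR at an adjusted p under 0.05. The 18 called genes make up 56.2% of those tested, beside 60.1% of all 14900 tested genes, 30.0% higher and 30.1% lower, so the share of calls is close to that of the transcriptome and is not a result about these genes. At a fold of at least 2 there were 4 called members, OAS3, IRF1, MX2 and ISG20, or 12.5% of 32 against 13.2% of all tested genes. The 3 libraries of one group lay wholly above or below those of the other for 16 of the 32 members, against 63.7% of all tested genes. The median log2FC of the 32 was 0.06, and that of all tested genes was 0.01. The median size of the log2FC, without its sign, was 0.31 among the members and 0.39 among all tested genes. Under scaling by library totals alone, which moves the median of all genes up by 0.15 on the log2 scale, 13 members were called higher and 3 lower. With upper-quartile factors, 11 were called higher and 5 lower. Among all genes, 49.97% of calls were higher with the TMM scaling used here, 58.0% with upper-quartile factors and 64.7% with library totals alone.

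**Figure D1:**
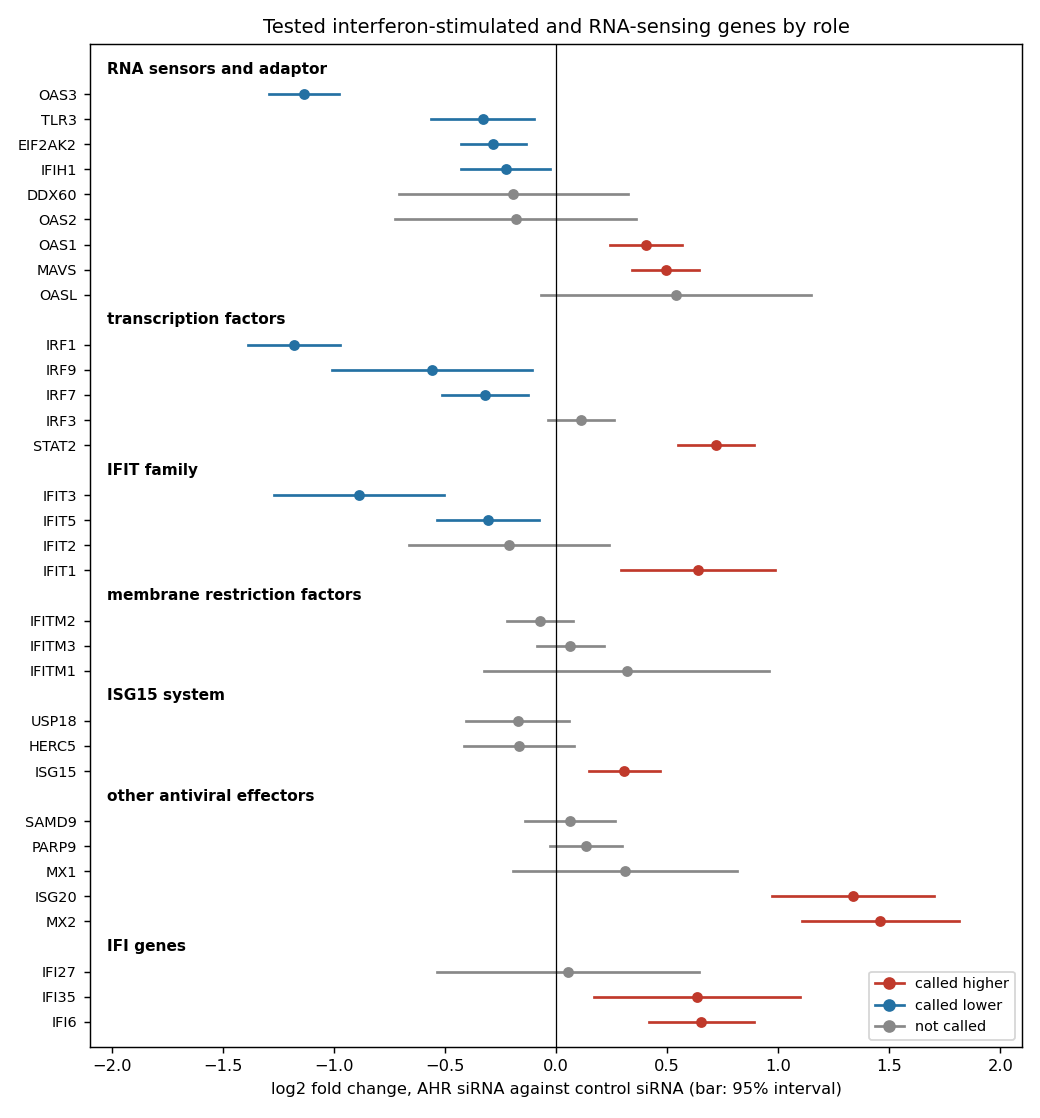
Log2 fold change of each of the 32 tested members, AHR siRNA against control siRNA (x axis), grouped by role, with bars for the 95% interval of the edgeR fit and colours for the call. Red points lie right of 0 and blue points left of 0 within the sensor, transcription factor and IFIT groups alike, while all 3 intervals of the membrane restriction factors include 0.

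Among the sensors of double-stranded RNA, the 3 OAS neighbours diverged. OAS1, OAS2 and OAS3 encode synthetases that, on binding double-stranded RNA, make the short oligoadenylates that activate RNase L. They lie in tandem on the plus strand of chromosome 12 in the order OAS1, OAS3, OAS2, with gaps of 5.13 and 5.15 kb (GRCh38, GENCODE 29). OAS3 (ENSG00000111331.11) was the most abundant of the 3 and stood at 372, 419 and 413 CPM in control replicates 1 to 3 and at 171, 176 and 201 CPM in the AHR siRNA libraries, in the same order. The 2 groups were far apart, and OAS3 fell to 45.5% of control, a log2FC of -1.13 (SE 0.08, edgeR adjusted p = 2.50e-10). OAS1 (ENSG00000089127.11), one gene upstream, stood at 48.3, 46.6 and 42.5 CPM in control and at 64.6, 57.8 and 59.6 CPM in AHR siRNA libraries. Every AHR siRNA value of OAS1 was above every control value, and it rose to 132% of control at a log2FC of 0.40 (SE 0.08, edgeR adjusted p = 0.000171). OAS2 was near the lower end of the tested range, at 1.90 ± 0.22 CPM in control and 1.68 ± 0.06 CPM in AHR siRNA cells (SD, n = 3 each). Its log2FC of -0.18 had a 95% interval from -0.72 to 0.36 (edgeR adjusted p = 0.563), so a difference within that range was not detectable at this depth.

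The promoters of the OAS pair that moved in opposite directions are shown because they lie in one cluster and carry runs of ISRE type in different numbers and spacing. Each sequence runs from 250 bases before to 50 bases from the RefSeq gene start on (GRCh38.p14; OAS3 at chr12:112938224-112938523, plus strand; OAS1 at chr12:112906712-112907011, plus strand), and capitals mark matches to the ISRE core GAAANNGAA or to the run GAAANGAAA, which has 1 free base in place of 2 and was added after the OAS1 sequence was seen.
OAS3: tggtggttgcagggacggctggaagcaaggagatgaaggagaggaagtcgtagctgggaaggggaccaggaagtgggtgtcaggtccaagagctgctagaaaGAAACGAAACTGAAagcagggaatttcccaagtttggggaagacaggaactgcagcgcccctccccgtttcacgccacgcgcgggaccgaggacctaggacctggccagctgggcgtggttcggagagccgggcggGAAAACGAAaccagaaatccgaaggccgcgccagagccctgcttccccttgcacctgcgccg
OAS1: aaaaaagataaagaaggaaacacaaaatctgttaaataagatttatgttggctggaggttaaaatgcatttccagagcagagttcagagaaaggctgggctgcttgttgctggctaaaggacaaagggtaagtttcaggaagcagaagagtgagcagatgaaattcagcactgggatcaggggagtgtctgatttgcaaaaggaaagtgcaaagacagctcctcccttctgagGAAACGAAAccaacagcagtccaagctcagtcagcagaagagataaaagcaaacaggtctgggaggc
OAS3 held 2 matches to GAAANNGAA, at -143 to -135 and at -12 to -4 from the start, and 1 match to GAAANGAAA, at -148 to -140, which overlaps the first of them. OAS1 held no match to GAAANNGAA and 1 to GAAANGAAA, at -17 to -9. OAS1 held 1 match to the GAS core TTCNNNGAA, at -168 to -160, and OAS3 held none. For the AHR response element core GCGTG there were 3 matches in the OAS3 window and none in that of OAS1.

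The other sensors changed less. EIF2AK2 encodes PKR, the kinase that halts translation on binding double-stranded RNA, and it fell from 226, 247 and 257 CPM in control replicates 1 to 3 to 199, 189 and 211 CPM in the AHR siRNA libraries, in the same order. These groups did not overlap, and the log2FC was -0.28 (SE 0.07, edgeR adjusted p = 0.00177), which was no call with library totals alone (-0.14, edgeR adjusted p = 0.115). TLR3, the endosomal sensor, stood at 14.3, 16.6 and 17.5 CPM in control and at 12.8, 12.6 and 13.0 CPM in AHR siRNA libraries. It fell at a log2FC of -0.33 (edgeR adjusted p = 0.0153), and the call was lost without control replicate 3 (-0.28, edgeR adjusted p = 0.0720), with upper-quartile factors (-0.25, 0.0586) and with library totals alone (-0.18, 0.175). IFIH1, the gene of MDA5, stood at 31.1, 28.8 and 24.5 CPM in control and at 23.4, 24.7 and 24.1 CPM in AHR siRNA libraries. The groups of IFIH1 overlapped, since AHR siRNA replicate 2 lay above control replicate 3, and its log2FC was -0.23 (edgeR adjusted p = 0.0476). That call was lost in 12 of 15 alternatives, among them without control replicate 1 (-0.16, edgeR adjusted p = 0.155), control replicate 2 (-0.22, 0.0981), AHR siRNA replicate 1 (-0.21, 0.117), AHR siRNA replicate 2 (-0.25, 0.0774) or AHR siRNA replicate 3 (-0.23, 0.0895).

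MAVS, the mitochondrial adaptor onto which MDA5 and RIG-I converge, went the other way. It stood at 183, 195 and 205 CPM in control replicates 1 to 3 and at 249, 279 and 292 CPM in the AHR siRNA libraries, in the same order. Each AHR siRNA library exceeded each control library, and the log2FC was 0.49 (SE 0.07, edgeR adjusted p = 8.67e-06). OASL, a relative of the OAS enzymes that has lost synthetase activity and assists RIG-I, was low at 1.40 ± 0.49 and 2.03 ± 0.22 CPM (SD, n = 3 each) and was not called (log2FC 0.54, 95% interval -0.07 to 1.15). Without control replicate 1, the highest of its group, OASL was called (0.84, edgeR adjusted p = 0.0317). DDX60, a helicase gene, was at 2.74 ± 0.76 and 2.40 ± 0.38 CPM (SD, n = 3 each) with an interval from -0.71 to 0.32.

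**Figure D2:**
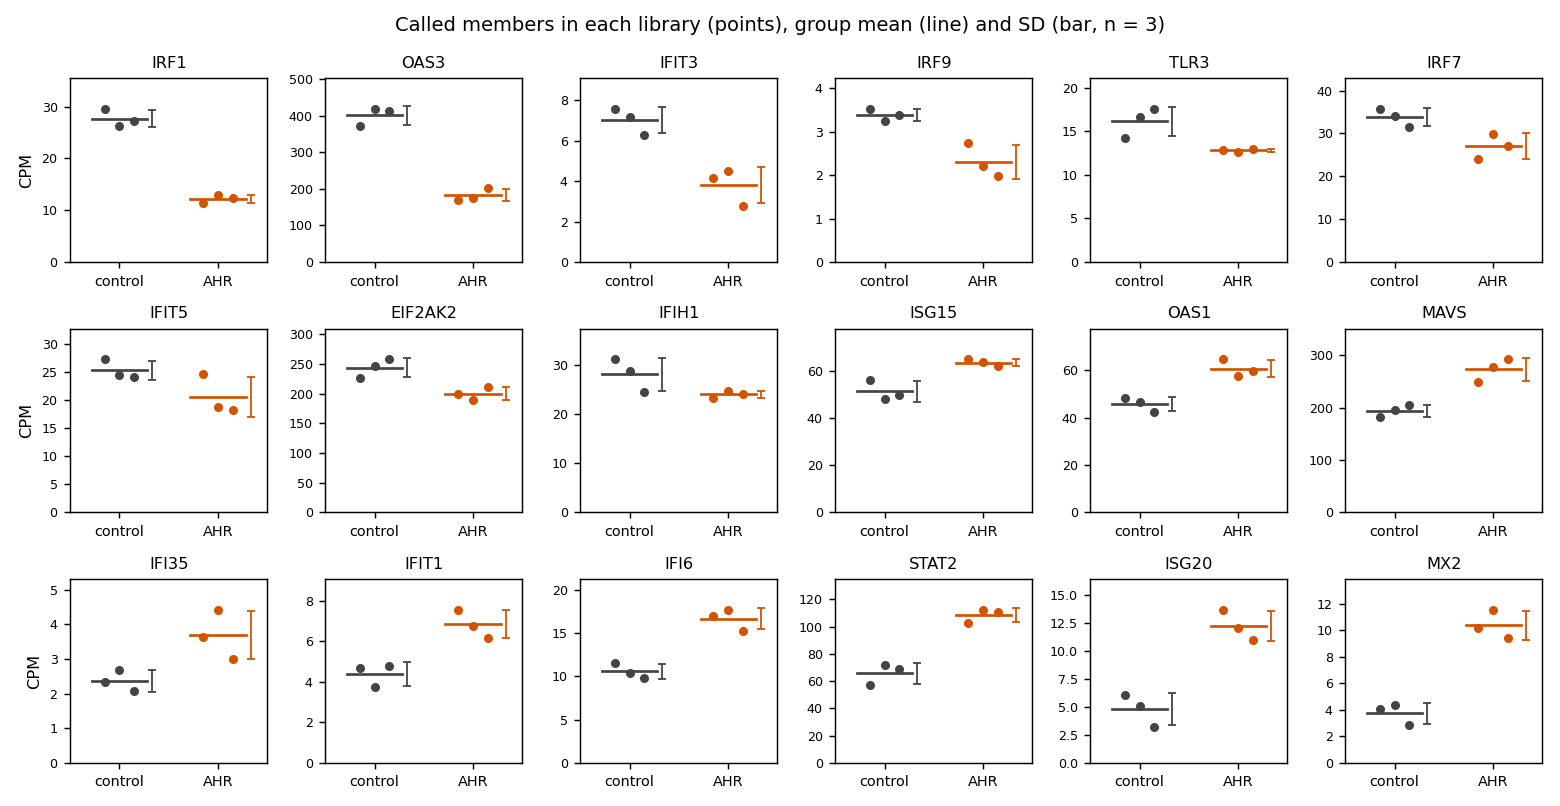
CPM (y axis, from 0) of the 18 called members in each of the 3 control siRNA and 3 AHR siRNA libraries (points), with the group mean (line) and SD (bar, n = 3), ordered from the largest fall, IRF1, to the largest rise, MX2. The groups overlap for IFIH1 and IFIT5 and are separate for the other 16 genes.

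The transcription factors of the response also split. IRF1 (ENSG00000125347.12), an activator of transcription induced by interferons and NF-kB, stood at 29.6, 26.3 and 27.3 CPM in control replicates 1 to 3 and at 11.3, 12.9 and 12.3 CPM in the AHR siRNA libraries, in the same order. It fell to 44.2% of control, the largest fall among the members, at a log2FC of -1.18 (SE 0.10, edgeR adjusted p = 6.63e-09). STAT2, a subunit of the ISRE-binding complex, rose from 57.0, 71.5 and 69.0 CPM to 102, 112 and 111 CPM. No library of the 2 groups overlapped for STAT2, and the log2FC was 0.72 (SE 0.08, edgeR adjusted p = 3.76e-07). IRF9, the DNA-binding subunit of the same complex, stood at 3.53, 3.24 and 3.38 CPM in control and at 2.73, 2.21 and 1.98 CPM in AHR siRNA libraries. It fell at a log2FC of -0.56 (edgeR adjusted p = 0.0319), so STAT2 and IRF9 did not share a direction.

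The IRF9 call was weak. It was lost without control replicate 1 (-0.54, edgeR adjusted p = 0.0635), control replicate 3 (-0.57, 0.0618), AHR siRNA replicate 2 (-0.53, 0.0907) or AHR siRNA replicate 3 (-0.46, 0.132), and with the DESeq2 test (-0.56, 0.0939), upper-quartile factors (-0.48, 0.0626) and library totals alone (-0.41, 0.103). In GENCODE 29 the gene AL136295.5 on the same strand covers 48.4% of the exon bases of IRF9 and holds 100% of the 50-base stretches of its longest coding transcript. The count of IRF9, and so its direction beside STAT2, is therefore uncertain. IRF7, the factor that amplifies type I interferon genes, stood at 35.7, 34.2 and 31.5 CPM in control and at 24.0, 29.9 and 27.2 CPM in AHR siRNA libraries. It fell without overlap at a log2FC of -0.32 (SE 0.09, edgeR adjusted p = 0.00609), which was no call with library totals alone (-0.17, edgeR adjusted p = 0.124). IRF3, which is activated by phosphorylation downstream of MAVS, was not called at 106 ± 5 and 114 ± 8 CPM (SD, n = 3 each) and the interval ran from -0.04 to 0.26. With upper-quartile factors IRF3 was called higher (0.19, edgeR adjusted p = 0.0283), and likewise with library totals alone (0.26, 0.00346). Genes on the opposite strand cover 22.0% of the exon bases of IRF1 and 19.4% of those of IRF3, and the sources used here do not give the strand setting of the counting.

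The IRF1 promoter is shown for its GAS match, in capitals at -124 to -116 from the start, because IRF1 is a classic target of interferon gamma through that element (GRCh38.p14, chr5:132490869-132490917, minus strand). The window holds the match and 20 bases on each side.
IRF1: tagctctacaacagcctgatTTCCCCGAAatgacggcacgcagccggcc
The IRF1 promoter held no match to GAAANNGAA. It held 1 match to the AHR response element core GCGTG, at -108 to -104, read on the opposite strand and in lower case in the line above. Of the other called members, IRF9 (lower), OAS1 and IFI35 (both higher) held 1 GAS match each, and TLR3 (lower) held 2.

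Products of the IFIT family bind the ends of foreign RNA and block its translation. The listed IFIT genes lie on chromosome 10 in the order IFIT2, IFIT3, IFIT1, IFIT5, and genes between them were not looked for. IFIT1 stood at 4.65, 3.73 and 4.77 CPM in control replicates 1 to 3 and at 7.54, 6.77 and 6.17 CPM in the AHR siRNA libraries, in the same order. It rose without overlap to 156% of control at a log2FC of 0.64 (SE 0.17, edgeR adjusted p = 0.00267). IFIT3, whose product binds IFIT1 and stabilises it, stood at 7.58, 7.18 and 6.31 CPM in control and at 4.14, 4.49 and 2.79 CPM in AHR siRNA libraries. It fell without overlap to 54.1% of control at a log2FC of -0.89 (SE 0.18, edgeR adjusted p = 0.000362). The start of IFIT1 lies 51.6 kb beyond the end of IFIT3 in GENCODE 29, and IFIT1 and IFIT3 changed in opposite directions.

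IFIT5 stood at 27.3, 24.5 and 24.2 CPM in control and at 24.7, 18.8 and 18.2 CPM in AHR siRNA libraries, and AHR siRNA replicate 1 lay inside the control range. Its log2FC was -0.31 (SE 0.11, edgeR adjusted p = 0.0225). The IFIT5 call was lost without AHR siRNA replicate 2 (-0.25, edgeR adjusted p = 0.117) or AHR siRNA replicate 3 (-0.22, 0.115), with upper-quartile factors (-0.23, 0.0839) and with library totals alone (-0.16, 0.223). IFIT2 was not called at 3.39 ± 0.67 and 2.94 ± 0.32 CPM (SD, n = 3 each) and the interval ran from -0.66 to 0.24.

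From each of the IFIT3 and IFIT1 promoters, which hold 2 ISRE matches each, 1 match is shown because the transcripts moved apart. IFIT3 has 2 promoters in the RefSeq table, and the first listed was used. Each line gives that match in capitals, read on the opposite strand, with 20 bases on each side (GRCh38.p14; IFIT3 at chr10:89327856-89327904, plus strand; IFIT1 at chr10:89392488-89392536, plus strand).
IFIT3: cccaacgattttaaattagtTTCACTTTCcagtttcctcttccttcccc
IFIT1: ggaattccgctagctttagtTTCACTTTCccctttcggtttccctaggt
The core was the same in both, TTCACTTTC as printed, at -121 to -113 in IFIT3 and at -115 to -107 in IFIT1. The second match lies at -155 to -147 in IFIT3, outside the stretch shown, and at -102 to -94 in IFIT1, in lower case in the line above.

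The membrane restriction factors held the member with the highest CPM, IFITM2, and none of the 3 tested factors was called. IFITM1, IFITM2 and IFITM3 encode small membrane proteins that block entry of enveloped viruses. IFITM2 stood at 524, 446 and 452 CPM in control replicates 1 to 3 and at 448, 462 and 443 CPM in the AHR siRNA libraries, in the same order. Only control replicate 1 stood clear of the other 5 values, and the log2FC was -0.07 (SE 0.07, 95% interval -0.22 to 0.08, edgeR adjusted p = 0.402). IFITM3 stood at 442, 367 and 393 CPM in control and at 411, 431 and 414 CPM in AHR siRNA libraries, with overlapping groups and a log2FC of 0.06 (SE 0.07, 95% interval -0.09 to 0.22, edgeR adjusted p = 0.464). With library totals alone the sign of IFITM2 turned (0.08, edgeR adjusted p = 0.299) and IFITM3 was called higher (0.21, 0.00945). IFITM1 was low at 1.35 ± 0.46 and 1.69 ± 0.30 CPM (SD, n = 3 each) and the log2FC was 0.32 (SE 0.31, 95% interval -0.32 to 0.96, edgeR adjusted p = 0.387). Of the 50-base stretches of the IFITM1 transcript 42.3% occur in transcripts of other genes, against 15.8% for IFITM2 and 20.3% for IFITM3. For IFITM1 most are shared with IFITM2 (38.96%), whose exons on the same strand cover 32.5% of its exon bases. IFITM1 covers 22.75% of the exon bases of IFITM2. A gene on the opposite strand covers 21.3% of those of IFITM3. How much of the sharing comes from overlapping annotation and how much from similar sequence was not tested. The separate values of IFITM1, IFITM2 and IFITM3 are therefore uncertain. BST2, the gene of tetherin, had 2, 0 and 2 counts in control and 1, 3 and 1 counts in AHR siRNA replicates 1 to 3 and was not tested.

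Of the 3 members in the ISG15 system, ISG15 rose, and the enzyme genes HERC5 and USP18 were not called. UBE2L6, an enzyme gene of the same system counted in the other pathway lists, was called higher (log2FC 0.78, edgeR adjusted p = 1.18e-06). ISG15 encodes a ubiquitin-like protein that is joined to newly made proteins, and it stood at 56.4, 48.0 and 49.8 CPM in control replicates 1 to 3 and at 64.9, 63.8 and 62.1 CPM in the AHR siRNA libraries, in the same order. The groups did not overlap, and the log2FC was 0.31 (SE 0.08, edgeR adjusted p = 0.00183). HERC5, the ligase that attaches ISG15, stood at 12.3 ± 0.95 and 10.97 ± 0.55 CPM (SD, n = 3 each) and the log2FC was -0.17 (SE 0.12, interval -0.41 to 0.08, edgeR adjusted p = 0.230). USP18, the protease that removes ISG15 and also damps the type I interferon receptor, stood at 14.9 ± 1.0 and 13.3 ± 1.1 CPM (SD, n = 3 each) and the log2FC was -0.17 (SE 0.11, interval -0.41 to 0.06, edgeR adjusted p = 0.188). Of the 50-base stretches of the USP18 transcript, 23.4% occur in transcripts of other genes, mostly USP41, so its value is uncertain.

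The largest rises among the members were in 2 antiviral effectors of low abundance. MX2 (ENSG00000183486.11), a dynamin-like GTPase that blocks nuclear entry of viral genomes, stood at 4.05, 4.35 and 2.85 CPM in control replicates 1 to 3 and at 10.2, 11.5 and 9.40 CPM in the AHR siRNA libraries, in the same order. It rose to 275% of control at a log2FC of 1.46 (SE 0.17, edgeR adjusted p = 4.53e-07). Its neighbour MX1, which starts 10.9 kb beyond the end of MX2 on chromosome 21 and encodes the cytoplasmic MxA protein, was not called at 4.13, 3.52 and 2.69 CPM in control and 2.57, 5.15 and 4.99 CPM in AHR siRNA libraries. AHR siRNA replicate 1 was the lowest of all 6 for MX1, and without it the gene was called higher (log2FC 0.55, edgeR adjusted p = 0.0371, against 0.31 and 0.280 with it). ISG20 (ENSG00000172183.13), a gene of an RNA exonuclease, stood at 6.08, 5.11 and 3.23 CPM in control and at 13.7, 12.1 and 10.9 CPM in AHR siRNA libraries. It rose without overlap to 253% of control at a log2FC of 1.34 (SE 0.17, edgeR adjusted p = 2.20e-06).

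SAMD9, a growth-restraining antiviral gene, was at 21.3 ± 1.0 and 22.3 ± 2.1 CPM (SD, n = 3 each) and the log2FC was 0.06 with an interval from -0.14 to 0.26. PARP9, an ADP-ribosyltransferase gene of the interferon response, was at 61.6 ± 5.3 and 67.7 ± 3.8 CPM (SD, n = 3 each) and the log2FC was 0.14 (SE 0.08, interval -0.03 to 0.30, edgeR adjusted p = 0.144). PARP9 was called higher with upper-quartile factors (0.21, edgeR adjusted p = 0.0230) and with library totals alone (0.28, 0.00799). RSAD2, the gene of viperin, had 0, 3 and 1 counts in control and 2 counts in each AHR siRNA library. XAF1, a pro-apoptotic interferon target, had no count in any library. A count of 0 allows up to 3 counts, which is 0.207 to 0.248 CPM per library, for counting error only.

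Among the IFI genes, the 2 that were called were higher. IFI6, which encodes a small mitochondrial and endoplasmic reticulum protein, stood at 11.5, 10.4 and 9.85 CPM in control replicates 1 to 3 and at 17.0, 17.7 and 15.3 CPM in the AHR siRNA libraries, in the same order. It rose without overlap at a log2FC of 0.65 (SE 0.11, edgeR adjusted p = 6.16e-05). IFI35 stood at 2.33, 2.69 and 2.08 CPM in control and at 3.64, 4.41 and 3.01 CPM in AHR siRNA libraries, a rise without overlap at 0.63 (SE 0.22, edgeR adjusted p = 0.0185). The IFI35 call was lost on leaving out control replicate 3 (0.54, edgeR adjusted p = 0.0744) or AHR siRNA replicate 2 (0.48, 0.118), and with DESeq2 (0.63, 0.0536). IFI27, strongly induced by interferon in epithelium, was low at 1.54 ± 0.32 and 1.60 ± 0.18 CPM (SD, n = 3 each) and was not called (log2FC 0.05, SE 0.28, interval -0.54 to 0.64, edgeR adjusted p = 0.883). IFI44 had 4, 1 and 0 counts in control and 2, 0 and 1 counts in AHR siRNA libraries. IFI44L had 1 count, in AHR siRNA replicate 1, and none elsewhere.

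**Figure D3:**
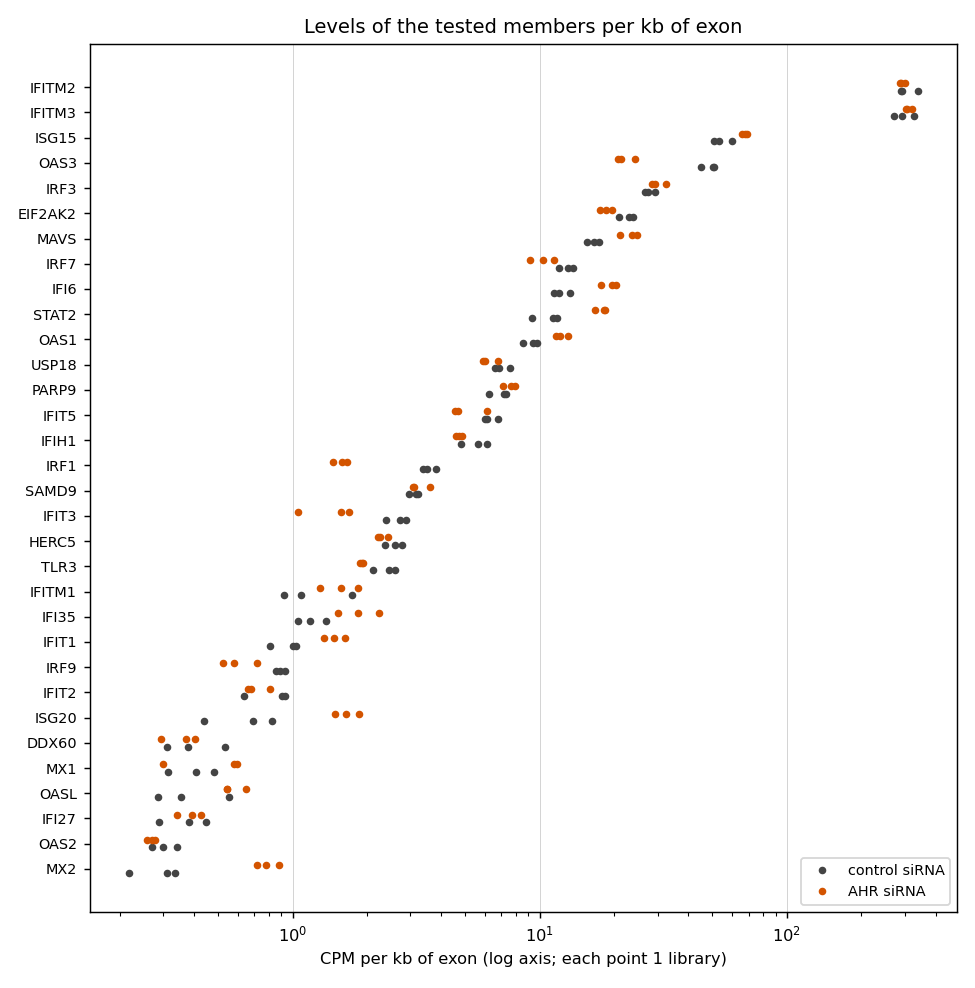
Level of the 32 tested members in CPM per kb of exon (x axis, log scale), ordered by their mean in control siRNA, with 1 point per library in each group. IFITM2 and IFITM3 stand near 300 CPM per kb of exon. Several classic interferon-induced genes (MX1, MX2, OAS2, OASL, IFI27, DDX60, ISG20, IFIT1, IFIT2) have control means below 1 CPM per kb of exon, with single IFIT1 control libraries up to 1.03. The OAS3, IRF1, ISG20 and MX2 points show the widest gaps between the groups.

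Levels were compared between genes per kb of exon, taking the union of GENCODE 29 exons as the length, and again per kb of the longest coding transcript, an alternative chosen after seeing the data. In control cells IFITM2 stood at 307 and IFITM3 at 297 CPM per kb, which do not differ beyond their spread, followed by ISG15 at 54.6 and OAS3 at 48.6 CPM per kb, whose ranges over libraries nearly met. IRF3 followed at 27.9, EIF2AK2 at 22.6 and MAVS at 16.5 CPM per kb. The lowest tested members per kb of exon were MX2 at 0.287, OAS2 at 0.304, IFI27 at 0.372, OASL at 0.397, MX1 at 0.400 and DDX60 at 0.406 CPM per kb, and neighbours in this order overlapped. Per kb of transcript the low end changed: MX2 stood at 1.23, IFI27 at 2.13 and ISG20 at 2.59 CPM per kb, up to 5.72 times the value per kb of exon, and the lowest were OAS2 at 0.402, OASL at 0.428 and DDX60 at 0.452. IFITM2, IFITM3 and ISG15 were the highest 3 by either length, and IRF3 (60.8) and OAS3 (59.7) overlapped per kb of transcript. Per kb of exon in AHR siRNA cells, the order near the top changed: OAS3 stood at 22.1 CPM per kb, below IRF3 at 30.1 and close to MAVS at 23.2, and ISG15 stood at 67.6. IRF3 and MAVS, whose products act before any interferon is made, were among the more abundant members, while BST2, RSAD2, XAF1, IFI44 and IFI44L were at the detection limit in both groups.

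Matches to the ISRE core were common in the promoters of the members and were found with either direction of change. A promoter was present in the RefSeq table for 29 of the 37 members, and 21 of these (72.4%) held GAAANNGAA on either strand, against 8.11% of all 35116 promoters of the same length. IFIT3, RSAD2, XAF1, PARP9, IFI27 and IFI44 have 2 promoters each and MX1 has 3, and only the first listed was counted. The member shares are thus per gene and those of all promoters per promoter. Among the members with a promoter, the core was present in 4 of 8 called higher, 6 of 8 called lower, 7 of 8 not called and 4 of 5 not tested. The GAS core was present in 9 of 29 (31.0%) against 7.66% of all promoters, and matches of the ISRE and GAS cores may overlap. The AHR response element core GCGTG was present in 7 of 29 (24.1%), 2 called higher, 3 called lower and 2 not called, against 36.5% of all promoters. The run GAAANGAAA was present in 9 of 29, among them 2 called higher and 1 called lower, against 3.12% of all promoters. A match is a run of letters and not a measured binding site.

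Further windows around an ISRE core are shown for members that rose (ISG15, ISG20, IFI6) and for EIF2AK2, which fell, so that the element can be read beside the opposite changes. Capitals mark 1 core in each and 20 bases flank it on each side. In ISG15, the overlapping cores at -113 and -101 are in lower case except for the bases they share with the capitals. Positions are in GRCh38.p14 (ISG15 at chr1:1013370-1013418 and ISG20 at chr15:88638927-88638975, plus strand, IFI6 at chr1:27672279-27672327 and EIF2AK2 at chr2:37156958-37157006, minus strand).
ISG15: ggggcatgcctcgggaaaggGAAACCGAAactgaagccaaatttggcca
ISG20: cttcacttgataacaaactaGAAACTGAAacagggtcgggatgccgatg
IFI6: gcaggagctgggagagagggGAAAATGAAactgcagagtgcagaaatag
EIF2AK2: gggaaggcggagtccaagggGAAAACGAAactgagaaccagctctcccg
The core in capitals begins at -107 in ISG15, at -69 in ISG20, at -115 in IFI6 and at -6 in EIF2AK2. The windows differ in the 2 free bases of the core and in their flanks.

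Beyond the members, 91 other genes of the pathway were examined, and most calls among them were lower. Of these, 69 were tested, and 34 were called lower and 12 higher, or 49.3% and 17.4%, beside the 30.1% and 30.0% of all tested genes. With upper-quartile factors 26 were called lower and 13 higher, and with library totals alone 15 and 13. Higher calls made up 26.1% of the calls in these lists with TMM, 33.3% with upper-quartile factors and 46.4% with library totals alone, each below the share of all genes under the same scaling. Among the 6 tested receptor genes, 4 were called lower (66.7%, beside 30.1% of all tested genes) and none higher. IFNAR2, a chain of the type I receptor, stood at 10.7, 10.4 and 12.8 CPM in control replicates 1 to 3 and at 5.05, 3.82 and 3.89 CPM in the AHR siRNA libraries, in the same order. It fell without overlap to 37.6% of control at a log2FC of -1.41 (SE 0.16, edgeR adjusted p = 2.67e-07). Its partner chain IFNAR1 fell from 68.1 ± 3.6 to 45.9 ± 2.7 CPM (SD, n = 3 each; log2FC -0.57, edgeR adjusted p = 2.57e-06). IFNGR1, the ligand-binding chain for interferon gamma, fell from 227 ± 11 to 119.5 ± 4.3 CPM (SD, n = 3 each; -0.93, edgeR adjusted p = 7.38e-10). IFNGR2 fell by less (-0.26, edgeR adjusted p = 0.0413). The calls of IFNAR2, IFNAR1 and IFNGR1 were kept in all 15 alternatives.

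The IFNGR2 call was lost without control replicate 2 (-0.16, edgeR adjusted p = 0.238), AHR siRNA replicate 1 (-0.26, 0.0805), AHR siRNA replicate 2 (-0.27, 0.0720) or AHR siRNA replicate 3 (-0.24, 0.104), and also with upper-quartile factors, library totals alone, no filter on low counts, the DESeq2 test and a threshold of 0.01. IFNLR1 and IL10RB, the chains of the type III receptor, were not called, at log2FCs of -0.07 and -0.34. Of the interferons, IFNB1, IFNK, IFNL1, IFNL2 and IFNL3 had no count in any library, IFNG had 1 count in 1 AHR siRNA library, and IFNE had 7, 9 and 10 counts in control and 9, 6 and 9 counts in AHR siRNA libraries.

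Of 9 tested JAK-STAT genes, 5 were called lower and 1 higher (55.6% and 11.1%, beside 30.1% and 30.0% of all tested genes). JAK1, the kinase shared by all interferon receptors, fell from 236 ± 9 to 129 ± 11 CPM (SD, n = 3 each; log2FC -0.87, edgeR adjusted p = 5.20e-09), and the phosphatase gene PTPN2 fell (-0.37, edgeR adjusted p = 0.000236). PTPN6, a phosphatase gene that restrains this signalling, rose (0.51, edgeR adjusted p = 2.01e-05). Of 17 tested genes of RNA sensing and its adaptors, 11 were called lower and 4 higher (64.7% and 23.5%). RIGI, the gene of the sensor of short double-stranded RNA with phosphorylated ends, rose from 21.1 ± 1.0 to 29.7 ± 2.5 CPM (SD, n = 3 each, log2FC 0.49, edgeR adjusted p = 0.000131). Its sign was opposite to that of IFIH1, whose lower call was weak and was lost in 12 of 15 alternatives. MYD88, the adaptor of most Toll-like receptors but not of TLR3, fell to 48.0% of control (-1.06, edgeR adjusted p = 3.06e-10), and the helicase genes DHX9 and DHX36 fell to 61.3% and 61.8%.

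Of 4 tested DNA-sensing genes, 1 was called lower (25%, beside 30.1% of all tested genes) and 3 were not called. The gene called was SAMHD1, whose product depletes the nucleotides needed for reverse transcription (-0.29, edgeR adjusted p = 0.00138). That call was lost with library totals alone (-0.14, edgeR adjusted p = 0.0797). Of 34 further interferon-stimulated genes tested, 14 were called lower and 7 higher (41.2% and 20.6%, beside 30.1% and 30.0% of all tested genes). LAMP3, which encodes a lysosomal membrane protein, fell furthest, from 14.1 ± 0.4 to 2.84 ± 0.22 CPM (SD, n = 3 each; -2.31, edgeR adjusted p = 1.28e-10), and PNPT1, the gene of a mitochondrial ribonuclease, fell to 68.9% of control. TRIM5, which encodes a factor that recognises retroviral capsids, and PARP10 rose to 153% and 157%. CXCL10, a chemokine gene strongly induced by interferon, had 1 count in 1 AHR siRNA library and none elsewhere.

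**Figure D4:**
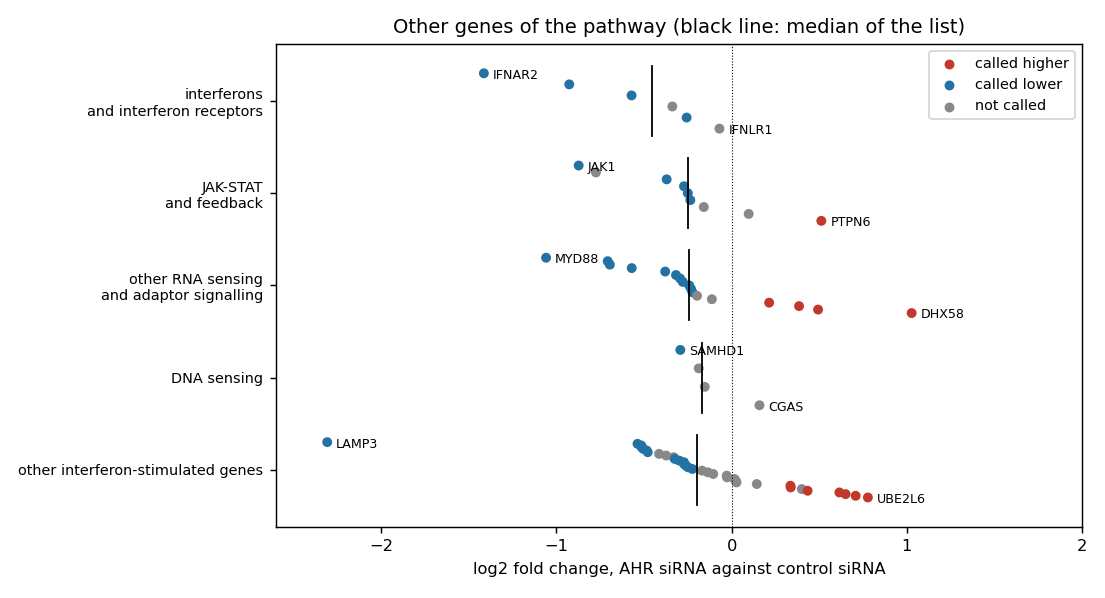
Log2 fold change, AHR siRNA against control siRNA (x axis), of the tested genes in 5 lists of other pathway genes (rows), with colours for the call and a black line at each list's median. With the TMM scaling shown, all 6 tested receptor genes lie left of 0, from IFNAR2 at -1.41 to IFNLR1 at -0.07. Library totals alone shift log2 fold changes up by a median of 0.15, more than the size of the IFNLR1 value. The lists of RNA sensing and of further interferon-stimulated genes hold calls on both sides.

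The choice of scaling changed the call of 10 members. With library totals alone 12 of the 18 called members kept their call in the same direction: OAS3, IRF1 and IFIT3 as lower, and OAS1, MAVS, STAT2, IFIT1, ISG15, MX2, ISG20, IFI6 and IFI35 as higher. The 6 that lost it, EIF2AK2, IFIH1, TLR3, IRF7, IRF9 and IFIT5, were all lower with TMM, and IFITM3, IRF3, OASL and PARP9 were called higher in their place. No called member changed its sign in any of the 15 alternatives.

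**Figure D5:**
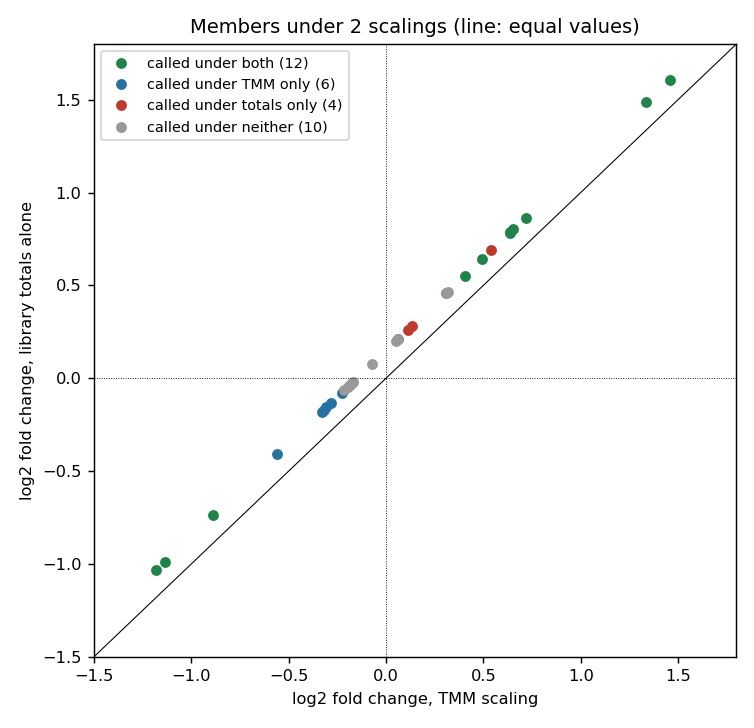
Log2 fold change of the 32 tested members with TMM scaling (x axis) and with library totals alone (y axis), with a line of equal values and colours for where the gene was called. All points lie above the line; 12 members were called under both scalings, 6 under TMM only, 4 under library totals only and 10 under neither.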

How the data were processed

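RNA-seq of 6 DLD-1 libraries was used, 3 with control siRNA and 3 with AHR siRNA, grouped by the sample titles. The authors deposited whole-number counts per versioned Ensembl gene ID, 1 table per library. HTSeq, TopHat and TopHat2 2.0.11 are named in the submitters' processing notes beside hg19 and GRCh37, without roles. The sources used here do not give the annotation release or strand setting. Rows without a gene numbered 0.

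Gene IDs were named from a table of current symbols, then from GENCODE 29, and 56753 of 60483 had a symbol. The counts were tested with edgeR 4.0.16 in R 4.3.3 (filterByExpr, TMM, glmQLFit and glmQLFTest, group as the only term), with Benjamini-Hochberg adjustment over all 14900 tested genes and calls at an adjusted p under 0.05. CPM refer to the TMM-scaled sum over tested genes. The SE is the log2 fold change divided by the square root of F, and 95% intervals use it. The fit was tested on simulated data. Alternatives were DESeq2 1.42.0, limma-voom (limma 3.58.1), other scalings, filters and a threshold of 0.01, a replicate block and leaving out each library. Motifs were searched on both strands of RefSeq promoters.

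The members, roles, lists and naming rule were chosen with earlier results of these data known. All 37 members are accounted for. Full statistics went to up to 3 members with the smallest p in each role and to every called member with a fold of at least 2, values in each library to the called members, and names to at most 4 called genes with the smallest p in each other list. One result of these lists is not reported here. Other genes (IFNLR1, IL10RB, the interferons, UBE2L6, CXCL10) were named after their values were seen. No label says that the replicates were separate cultures, so the p-values reflect only how these libraries vary, and that variation may be technical.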

Additional observations from a re-analysis of the deposited data

How the results depend on the processing

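Of the 18 called members, 11 kept their call in all 15 alternatives, 7 lost it in at least 1 and none changed sign. Of the 14 members not called, 5 were called in at least 1 alternative. The 9 lower calls became 5 with upper-quartile factors, 3 with library totals alone and 5 at an adjusted p under 0.01, and the 34 lower calls of the other pathway genes became 26 with upper-quartile factors and 15 with library totals alone. These scalings shift all genes upward together, and 64.7% of all calls were higher with library totals alone. The median log2 fold change of the members, 0.06, was 0.14 with upper-quartile factors and 0.20 with library totals alone. When each library was left out, that median ran from 0.0060 (without control siRNA replicate 1) to 0.058, the higher calls from 8 to 10, the lower calls from 6 to 8 and, among other pathway genes, the higher calls from 11 to 13 and the lower calls from 30 to 36.

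Members that were not called changed sign in some alternatives: the log2FC of IFITM2 was 0.0072 with upper-quartile factors and 0.078 with library totals alone. When each library was left out, the log2FC of IFI27 ran from -0.10 (below 0 without control siRNA replicate 1 or AHR siRNA replicate 3) to 0.18, that of DDX60 from -0.36 to 0.050 (without control siRNA replicate 2), that of IFITM3 from -0.0041 (without control siRNA replicate 2) to 0.13, and that of SAMD9 from -0.016 (without AHR siRNA replicate 1) to 0.11. For these, beyond the scalings, the cause was not tested. With the replicate block 9 members were called higher and 9 lower, and among the other pathway genes 12 and 38. The labels share replicate numbers but state no pairing, and deviations of same-numbered libraries correlated at 0.19, -0.04 and 0.15, so the numbers were not used to pair them. Control replicate 2 correlated best with AHR siRNA replicate 3 (0.16). Depth limits the genes near 2 CPM, such as OAS2, OASL, IFITM1 and IFI27, whose intervals span more than 1 log2 unit.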
